A study of Mus musculus with 4 samples.

Results

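The genes described here are 6 genes of the endoplasmic reticulum (ER): Sec61b, Erp44, Calu, Creb3, Ube2j1 and Retreg1. They were chosen by symbol from the 56748 gene IDs counted in each library, and each symbol had 1 row. The study used lymph nodes of 4 mice, marked dLN (read as draining lymph nodes) in the sample titles. The mice had induced EAE (experimental autoimmune encephalomyelitis), a disease in which T cells attack myelin of the brain and spinal cord. BrQ (2-bromo-1,4-naphthalenedione, a quinone carrying bromine) was given to 2 of them and vehicle to the other 2. All 4 mice had EAE, so there was no group without disease. Strain, sex, age, dose and time of collection are not given in the labels used here. Each mouse gave 1 library of total RNA, called BrQ replicates 1 and 3 and Vehicle replicates 1 and 3.

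Proteins destined for secretion or for membranes enter the ER while they are being made, fold there with the help of chaperones and disulfide chemistry, and are destroyed if folding fails. Antibody-secreting cells, which form in lymph nodes, depend heavily on this system. Sec61b encodes the beta subunit of the Sec61 channel through which new proteins enter. Erp44 encodes a thioredoxin-like protein that holds back unassembled proteins, IgM intermediates among them, through mixed disulfides. Calu encodes calumenin, a calcium-binding EF-hand protein of the secretory pathway. Creb3 encodes a transcription factor anchored in the ER membrane and released by cleavage in the Golgi. Ube2j1 encodes a ubiquitin-conjugating enzyme, anchored in the ER membrane, that marks misfolded proteins for the proteasome. Retreg1 encodes a reticulon-like receptor that delivers ER fragments to autophagosomes.

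In BrQ lymph nodes, Sec61b and Creb3 transcripts were lower, each at about 0.74 times the Vehicle level, and these were the 2 of the 6 genes that passed the test. Erp44, Ube2j1, Calu and Retreg1 did not pass. Across all 10223 features tested, 45.7% passed in one direction or the other with 23.6% higher and 22.2% lower in BrQ, so 2 of 6 is near that background. Among the 468 features tested in the stretches of the genome described next, 44.9% passed, 20.7% as higher and 24.1% as lower. Both calls depended on how the libraries were scaled, and were lost when library size alone was used. The reads of Calu relative to those of the other 5 genes within a library do not depend on the scaling. Relative to Calu, each of the other 5 genes had fewer reads in both BrQ libraries than in both Vehicle libraries. Of all pairs of features tested, 72.6% did not overlap in this way, and the 5 ratios share the Calu counts.

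Many gene names in these count tables look displaced from the reads of their genes, so the placement of the 6 is described first. All 6 lie in stretches of chromosomes 4, 6 and 15 where names and reads were earlier taken to meet. These and a stretch of chromosome 18, with ends rounded to whole megabases, held 599 protein-coding genes. Of these, 54.3% averaged at least 50 reads, against 21.5% of those elsewhere. The stretches were picked on these same data. This difference in shares and the neighbour counts that follow are therefore not separate evidence for the placement. Among the 10 protein-coding genes nearest in order to each of the 6, 8 reached 50 reads around Erp44 and 8 around Sec61b. Around Creb3 7 did, around Ube2j1 7 and around Retreg1 5. Around Calu 3 of 10 did, with a median of 3.25 reads, close to the level outside, so the placement of Calu is the least secure. Of 30 further ER genes whose names lie outside these stretches (Hspa5, Calr and Xbp1 among them), 23 averaged under 100 reads and 8 had 0 in all libraries, and their rows are not interpreted.

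The libraries held 6992223 and 6813832 reads in gene rows for BrQ, and 7315568 and 7989226 for Vehicle. Mitochondrially encoded genes took 15.8% and 12.1% of these reads in BrQ, against 20.6% and 30.3% in Vehicle. The lymph node label was checked on markers with names inside the same stretches. The B cell genes Pax5 and Cd72 together stood at 2075 and 2126 CPM (reads relative to the library total, scaled by TMM) in BrQ, against 3254 and 3391 in Vehicle. The T cell genes Il7r, Sit1 and Tox together stood at 679 and 755 CPM in BrQ, against 1005 and 1070 in Vehicle. Single markers did not all move with these sums. Cd72 (log2 fold change -1.01), Il7r (-0.61) and Sit1 (-0.78) passed as lower in BrQ, and Pax5 (-0.22) did not pass (adjusted p = 0.155, edgeR). Before scaling, Pax5 held 8183 and 8522 reads in BrQ, against 8514 and 8178 in Vehicle. The markers were read on the TMM scale only, so how far their changes depend on the scaling was not tested. Tox passed as higher, at 80.6 and 71.5 CPM in BrQ, against 46.6 and 45.4 CPM in Vehicle (log2 fold change 0.72, adjusted p = 0.00682, edgeR). The stroma and vessel genes Col1a2, Col15a1, Cav1 and Sdc2 together stood at 15.7 to 19.6 CPM in BrQ and 21.9 to 35.3 CPM in Vehicle. Of the chemokines of lymph node stroma, Ccl21a was at 0 in all libraries and Ccl19 averaged 10 reads. These defining markers of the labelled tissue thus had few or no counted reads. Whether their transcripts were absent from the tissue was not tested. In bulk tissue, fewer cells of a type and less RNA per cell cannot be told apart.

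The 6 genes lie on GRCm38 (mm10), and every one is protein-coding. Sec61b spans chr4:47474658-47483242 on the plus strand, with 1271 bases of exon in all its transcripts merged. Erp44 spans chr4:48193323-48279558 on the minus strand, with 3418 exonic bases. Creb3 spans chr4:43562332-43567060 on the plus strand, with 2372 exonic bases, of which 20.8% are shared with genes on the opposite strand. Ube2j1 spans chr4:33031416-33052363 on the plus strand, with 3530 exonic bases. Calu spans chr6:29348069-29377110 on the plus strand, with 4663 exonic bases, of which 8.51% are shared with Opn1sw on the opposite strand. Retreg1 spans chr15:25843180-25973687 on the plus strand, with 4142 exonic bases.

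The 250 bases before the RefSeq start site (GRCm38.p6, the start nearest to the gene's annotated start) are printed for 4 of the 6 genes: for Sec61b and Creb3 because they passed the test, for Calu because it moved apart from them, and for Ube2j1 because it alone held a full unfolded protein response element. All are on the plus strand, written 5′ to 3′, at chr4:47474411-47474660 (Sec61b), chr4:43562408-43562657 (Creb3), chr6:29347856-29348105 (Calu) and chr4:33031130-33031379 (Ube2j1). RefSeq and annotated gene starts differ. The Creb3 stretch lies wholly inside the annotated gene, which starts at 43562332. The ends of the Sec61b, Calu and Retreg1 stretches run into theirs. Capitals mark matches on either strand to the motifs named in the next paragraph.
Sec61b: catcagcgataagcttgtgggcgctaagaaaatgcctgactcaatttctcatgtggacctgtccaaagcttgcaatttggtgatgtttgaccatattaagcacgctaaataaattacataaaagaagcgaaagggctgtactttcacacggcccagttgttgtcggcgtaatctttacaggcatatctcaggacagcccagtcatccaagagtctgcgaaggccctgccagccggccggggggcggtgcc
Creb3: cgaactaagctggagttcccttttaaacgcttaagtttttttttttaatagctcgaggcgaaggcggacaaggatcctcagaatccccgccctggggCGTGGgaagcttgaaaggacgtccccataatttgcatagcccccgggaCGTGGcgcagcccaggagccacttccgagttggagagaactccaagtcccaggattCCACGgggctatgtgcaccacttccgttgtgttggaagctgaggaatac
Calu: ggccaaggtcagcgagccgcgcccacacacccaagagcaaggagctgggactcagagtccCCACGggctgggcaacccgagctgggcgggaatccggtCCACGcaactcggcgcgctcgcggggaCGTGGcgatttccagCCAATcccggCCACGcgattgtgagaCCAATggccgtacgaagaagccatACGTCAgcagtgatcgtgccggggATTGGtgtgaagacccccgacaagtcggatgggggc
Ube2j1: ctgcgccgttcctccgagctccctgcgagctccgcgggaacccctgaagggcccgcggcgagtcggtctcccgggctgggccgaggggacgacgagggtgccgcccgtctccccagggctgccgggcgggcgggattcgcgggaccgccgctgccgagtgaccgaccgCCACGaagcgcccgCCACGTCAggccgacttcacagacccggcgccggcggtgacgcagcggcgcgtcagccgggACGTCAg

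The motifs searched were CCAAT (the NF-Y box), CCACG (the other end of the ER stress element), the whole ER stress element (both of these at their set spacing), TGACGT (a core shared by the cAMP and unfolded protein response elements), TGACGTGG (an unfolded protein response element, which contains TGACGT and overlaps CCACG on the opposite strand) and an interferon response element. Of 32851 RefSeq promoters of the same length, 33.8% held CCAAT, 28.3% CCACG, 0.113% the whole ER stress element, 6.47% TGACGT, 0.563% TGACGTGG and 2.98% the interferon element. The Sec61b stretch, at 50% GC, held none of these letters. Creb3 held CCACG at 3 places and no other motif. Calu, at 66.0% GC, held CCAAT at 3 places, CCACG at 4 and TGACGT at 1. Ube2j1, at 77.2% GC, held CCACG at 2 places and TGACGT at 2, of which 1 was part of TGACGTGG. Erp44 held 1 CCAAT and 1 CCACG. Retreg1 held 1 CCACG and a palindrome read as TGACGT on both strands. No whole ER stress element and no interferon element was found before any of the 6 starts. The 2 genes that passed the test shared none of the motifs: Creb3 held CCACG and Sec61b did not. A match is a run of letters and was not shown to be bound.

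**Figure D1:**
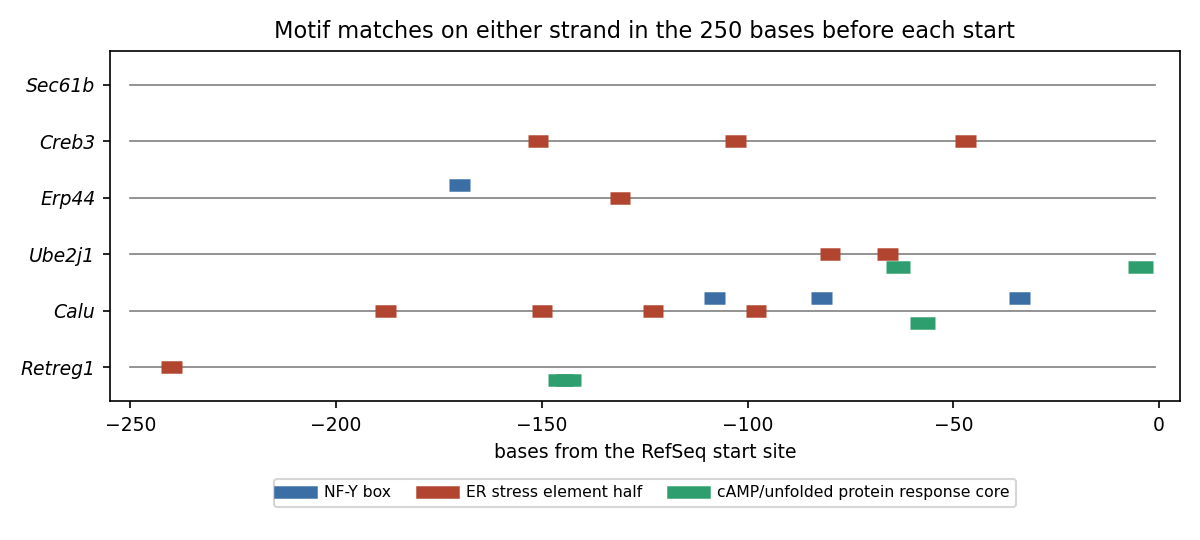
Matches to 3 motifs on either strand, by distance in bases from the RefSeq start site, for each of the 6 genes (rows). Calu holds 3 NF-Y boxes, 4 partial ER stress elements and 1 response element core, and Sec61b holds no match.

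Levels per length, in TMM-scaled CPM per kilobase of merged exon, put Sec61b first in all 4 libraries. Sec61b averaged 309 ± 11.5 over the BrQ libraries, against 419 ± 8.89 over the Vehicle libraries (SD, n = 2 each). Erp44, Ube2j1 and Creb3 followed and changed places between libraries. Erp44 stood at 80.9 ± 4.09 in BrQ, against 98.8 ± 18.1 for Vehicle, Ube2j1 at 80.1 ± 8.36 in BrQ, against 93.6 ± 8.67 for Vehicle, and Creb3 at 68.5 ± 2.48 in BrQ, against 93.2 ± 6.85 for Vehicle (SD, n = 2 each). These 3 overlapped in Vehicle. In BrQ, Erp44 and Ube2j1 overlapped and both Creb3 values lay below them. Calu came next, at 58.4 ± 3.77 in BrQ, against 51.6 ± 0.108 for Vehicle, and Retreg1 was last, at 49.8 ± 4.72 in BrQ, against 49.1 ± 0.982 for Vehicle (SD, n = 2 each). Calu and Retreg1 did not overlap within either group. Merged exons overstate the length of a gene whose shorter isoforms carry most reads, so the order rests on the annotation as well as on the counts. The Creb3 length also includes the 20.8% of bases shared with genes on the opposite strand. Whether reads there were counted is not given, so its place below Erp44 and Ube2j1 in BrQ is unsure.

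**Figure D2:**
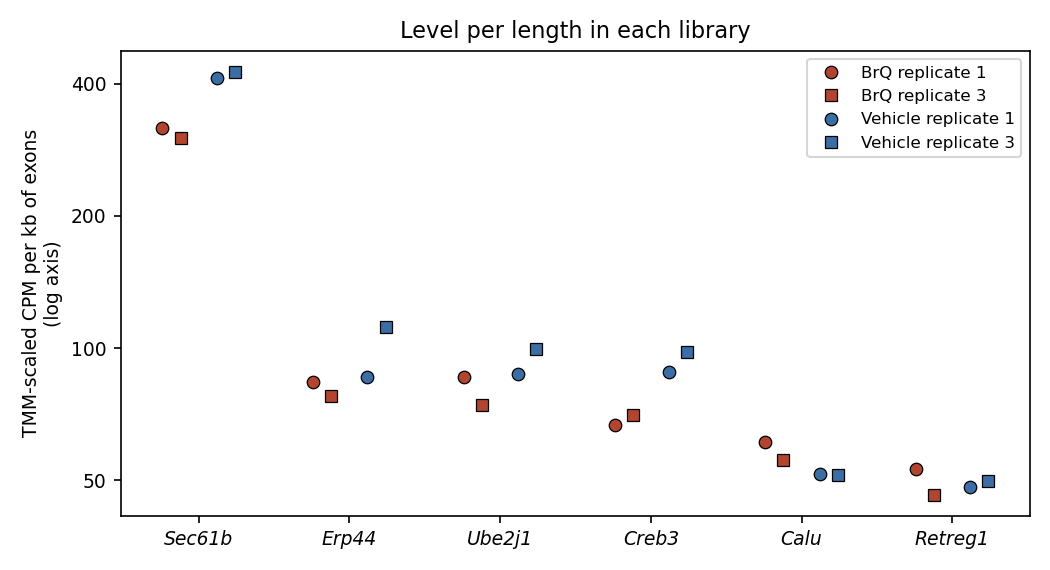
TMM-scaled CPM per kilobase of merged exon (log axis) for each gene, with 1 point per library, BrQ left of Vehicle. Sec61b stands alone at 301 to 425, the other 5 genes between 46.4 and 112.

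Sec61b, the entry channel subunit, held 3191 and 2964 reads in BrQ replicates 1 and 3, against 3610 and 3522 in Vehicle replicates 1 and 3. Scaled, that was 403 and 382 CPM in BrQ, against 525 and 540.5 CPM in Vehicle. Both BrQ libraries lay below both Vehicle libraries. The gap between the libraries of a group was 5.39% in BrQ and 3.05% in Vehicle. The log2 fold change was -0.44 ± 0.13 (SE, 95% interval -0.72 to -0.16, adjusted p = 0.0186 with edgeR's quasi-likelihood test), which is 0.738-fold. The call was lost without BrQ replicate 1 (-0.46, adjusted p = 0.0925, edgeR) and without BrQ replicate 3 (-0.39, adjusted p = 0.172, edgeR). For 32.0% of all features tested, the log2 fold change was lower still.

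Erp44, which retains folding intermediates, held 2268 and 2067 reads in BrQ replicates 1 and 3, against 2024 and 2485 in Vehicle replicates 1 and 3. Scaled, that was 286 and 267 CPM in BrQ, against 294 and 381 CPM in Vehicle. The Vehicle libraries differed by 29.7%, the widest gap within a group for any of the 6 genes, and Vehicle replicate 1 lay close to the BrQ libraries. The log2 fold change was -0.29 ± 0.16 (SE, 95% interval -0.63 to 0.06) and missed the threshold (adjusted p = 0.154, edgeR). The interval takes in falls to 0.644 times the Vehicle level as well as no change. The value rested on Vehicle replicate 3: without it the log2 fold change was -0.10 (adjusted p = 0.625, edgeR), and without Vehicle replicate 1 it was -0.49 and passed (adjusted p = 0.0262, edgeR).

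Calu, the calcium-binding member, held 2255 and 2015 reads in BrQ replicates 1 and 3, against 1660 and 1567 in Vehicle replicates 1 and 3. Scaled, that was 285 and 260.0 CPM in BrQ, against 241 and 240.5 CPM in Vehicle. It was the only 1 of the 6 whose BrQ libraries both lay above those of Vehicle on the TMM scale. The log2 fold change was 0.18 ± 0.13 (SE, 95% interval -0.12 to 0.48) and missed the threshold (adjusted p = 0.299, edgeR). Scaled by library size alone it was called higher (0.55, adjusted p = 0.0141, edgeR), and likewise when that size counted all read rows (0.39, adjusted p = 0.0496, edgeR). Opn1sw, which shares exonic bases with Calu, held at most 2 reads in any library.

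Creb3, the membrane-anchored transcription factor, held 1254 and 1292 reads in BrQ replicates 1 and 3, against 1442 and 1515 in Vehicle replicates 1 and 3. Scaled, that was 158 and 167 CPM in BrQ, against 209.5 and 232 CPM in Vehicle. Both BrQ libraries lay below both Vehicle libraries. The log2 fold change was -0.44 ± 0.14 (SE, 95% interval -0.76 to -0.13, adjusted p = 0.0273 with edgeR), which is 0.736-fold. The call was lost without BrQ replicate 1 (-0.39, adjusted p = 0.175, edgeR), without BrQ replicate 3 (-0.47, adjusted p = 0.139, edgeR) and without Vehicle replicate 3 (-0.38, adjusted p = 0.0839, edgeR). Creb3 shares 15.2% of its exonic bases with Tln1 and 5.61% with Gba2, both on the opposite strand, and whether the counting used strand is not given. Tln1 passed as lower too (log2 fold change -0.42, adjusted p = 0.0177 with edgeR), and so did Gba2 (-1.05, adjusted p = 0.000339 with edgeR). Whether reads of these neighbours entered the Creb3 counts was not tested.

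Ube2j1, the ubiquitin-conjugating enzyme, held 2405 and 2031 reads in BrQ replicates 1 and 3, against 2124 and 2293 in Vehicle replicates 1 and 3. Scaled, that was 304 and 262 CPM in BrQ, against 309 and 352 CPM in Vehicle. BrQ replicate 1 and Vehicle replicate 1 lay close together. The log2 fold change was -0.22 ± 0.14 (SE, 95% interval -0.54 to 0.10) and missed the threshold (adjusted p = 0.226, edgeR).

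Retreg1, the receptor for autophagy of the ER, held 1742 and 1491 reads in BrQ replicates 1 and 3, against 1381 and 1345 in Vehicle replicates 1 and 3. Scaled, that was 220.0 and 192 CPM in BrQ, against 201 and 206 CPM in Vehicle. Both Vehicle libraries lay between the BrQ libraries, and this was the only one of the 6 genes whose groups overlapped. The log2 fold change was 0.02 ± 0.14 (SE, 95% interval -0.30 to 0.33, adjusted p = 0.923 with edgeR). The interval takes in values from 0.815-fold to 1.26-fold, so changes within it are not excluded.

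**Figure D3:**
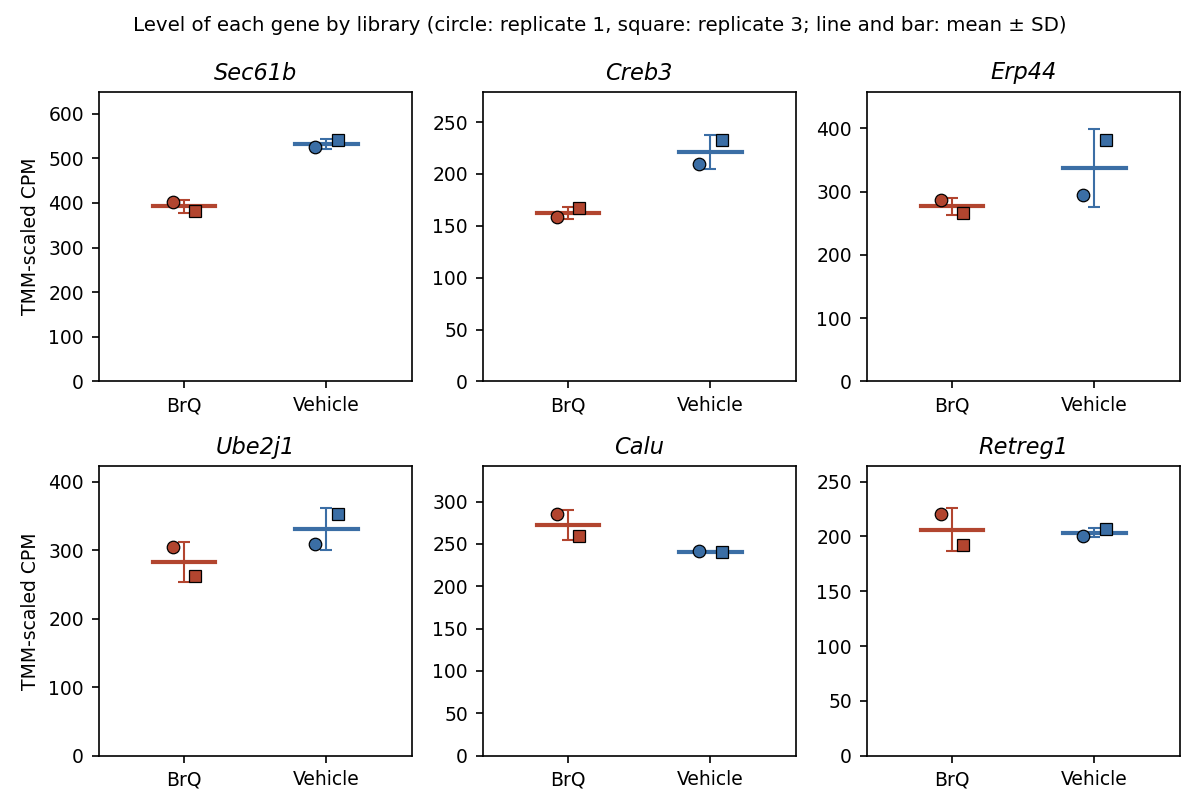
TMM-scaled CPM of each gene in each library, BrQ left of Vehicle, with the mean and SD of 2 mice per group; each axis starts at 0. Sec61b and Creb3 show BrQ points below Vehicle points, and the Retreg1 groups overlap.

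Of the 6 genes, 5 had groups that did not overlap on the TMM scale, against 76.1% of all features tested, so that count is near the background too. Counting error alone, taken as the root of each count, was 1.66% to 2.82% of the 24 counts of these genes. With library size alone, the median log2 fold change of all features tested was 0.42, against 0.05 with TMM, and the calls split into 3603 higher and 1072 lower in BrQ, against 2409 higher and 2267 lower with TMM. Counting all read rows in the library size split them 3092 to 1578, and leaving the mitochondrial genes out of the library size gave 3000 and 1730. Under library size alone Sec61b stood at -0.07 (adjusted p = 0.768, edgeR), Creb3 at -0.07 (adjusted p = 0.775, edgeR), Erp44 at 0.09 and Ube2j1 at 0.15. Read against the median of all features under the same setting, the genes moved much less. A change of scaling shifts all features nearly alike, so subtracting the median removes that shift by construction. The narrow ranges that follow are therefore no sign that the changes hold under any scaling. Over the main setting and the alternatives that kept all libraries, Sec61b lay 0.37 to 0.50 below that median, Creb3 0.37 to 0.50 below and Erp44 0.22 to 0.34 below. Ube2j1 lay 0.15 to 0.28 below, Calu 0.12 to 0.25 above, and Retreg1 between -0.04 and 0.09 of it. Sec61b passed under 10 of 17 alternatives and Creb3 under 8, with adjusted p-values of up to 0.768 and 0.775 (edgeR, DESeq2 or limma voom). Both counts take in fits that leave 1 mouse in a group. They also take in a fit with the replicate numbers crossed between the groups, added after seeing the data.

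**Figure D4:**
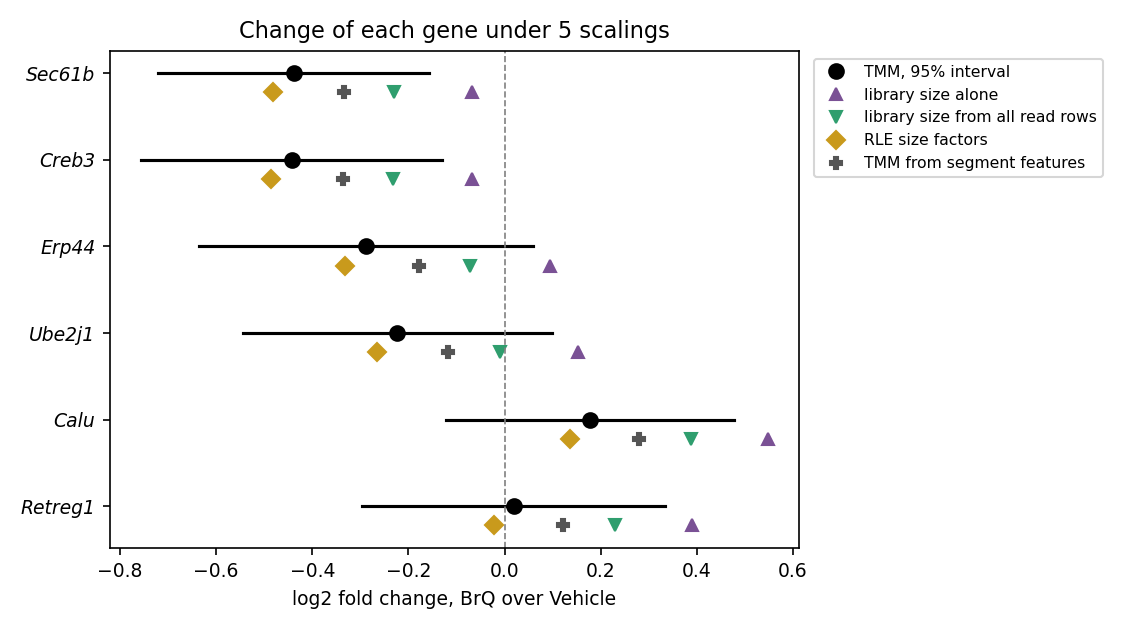
Log2 fold change of BrQ over Vehicle for each gene (rows), with the 95% interval of the TMM fit in black and the values under 4 other scalings below it. With library size alone all genes shift to the right, Sec61b to -0.07 and Calu to 0.55. A change of scaling moves all genes nearly alike, so their order could hardly change.

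Ratios of reads within a library do not depend on any scaling, and all 15 pairs of the 6 genes were compared. The log2 ratio of Sec61b to Calu was 0.50 and 0.56 in BrQ, against 1.12 and 1.17 in Vehicle. This pair changed by -0.62, so the ratio in BrQ was 0.653 times that in Vehicle. The log2 ratio of Creb3 to Calu was -0.85 and -0.64 in BrQ, against -0.20 and -0.05 in Vehicle, a difference of -0.62. The ratios of Erp44 and Ube2j1 to Calu differed by -0.45 and -0.40, and that of Calu to Retreg1 by 0.16. None of these 5 ratios to Calu overlapped between the groups, against 72.6% of all pairs of features without overlap. The 5 share 1 gene, Calu, whose placement is the least secure, so they are not 5 separate results.

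Sec61b and Creb3 kept nearly the same ratio to each other. Their log2 ratio averaged 1.27 ± 0.11 over the BrQ libraries and 1.27 ± 0.08 over the Vehicle libraries (SD, n = 2 each). The groups overlapped, and their means differed by 0.0022. Against Retreg1, Sec61b differed by -0.46 and Creb3 by -0.46, without overlap. The 4 pairs whose groups overlapped were Sec61b with Creb3 and Erp44 with Sec61b, Creb3 and Ube2j1. In all, 11 of 15 pairs did not overlap, against 72.6% of the 52249753 pairs of all features tested, so the count is near the background. The two-sided exact permutation test gave p = 0.333 (0.455 adjusted over the 15 pairs) for each of the 11, which is the smallest p that 2 against 2 libraries allow.

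**Figure D5:**
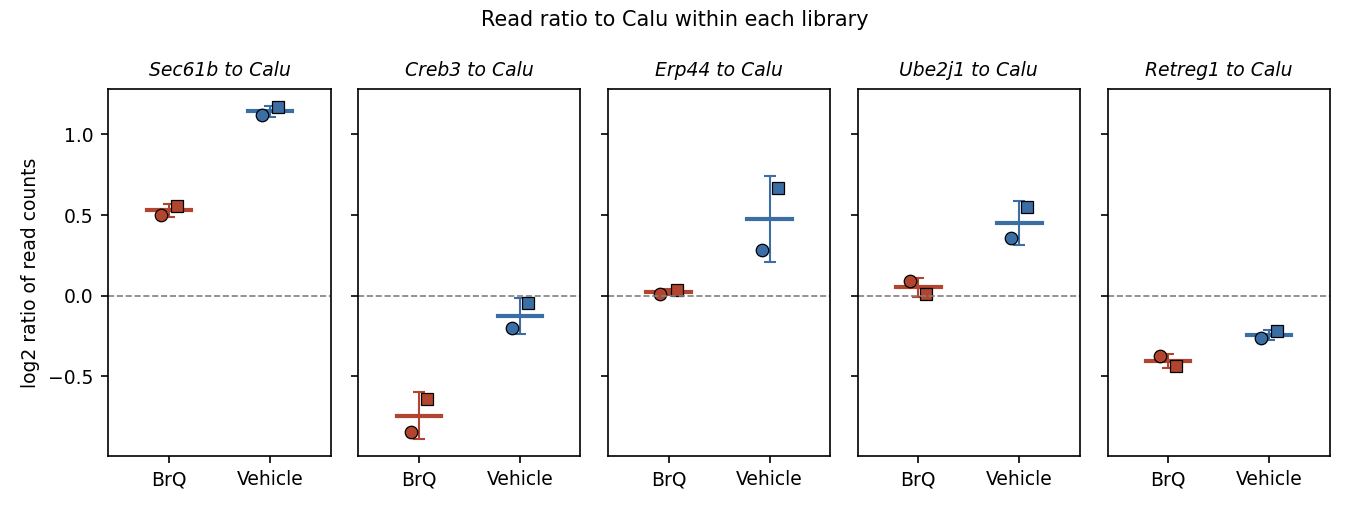
Log2 ratio of each gene's reads to those of Calu within each library, BrQ left of Vehicle, with the mean and SD of 2 mice per group (circle, replicate 1; square, replicate 3). Every ratio is lower in BrQ, with the widest gaps for Sec61b and Creb3, at -0.62 each.

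As shares of the reads of the 6 genes together, Sec61b took 24.3% and 24.99% in BrQ, against 29.5% and 27.7% in Vehicle. Creb3 took 9.56% and 10.9% in BrQ, against 11.8% and 11.9% in Vehicle. Calu took 17.2% and 17.0% in BrQ, against 13.6% and 12.3% in Vehicle, and Retreg1 took 13.3% and 12.6%, against 11.3% and 10.6%. The shares of Erp44 and Ube2j1 overlapped between the groups. The shares make up a fixed whole, so lower shares of some genes raise those of others. On the TMM scale the Retreg1 groups overlapped (log2 fold change 0.02, adjusted p = 0.923, edgeR). How often such shares overlap among other features was not computed.

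A list of 12 other genes of the ER and the early secretory pathway inside the same stretches was read beside them. All 12 were tested, 5 passed as higher and 4 as lower in BrQ, and their median log2 fold change was 0.22, against 0.05 for all features. Tmem38b, a cation channel of the ER membrane that supports calcium release, stood at 60.8 and 49.4 CPM in BrQ, against 27.8 and 33.8 CPM in Vehicle (log2 fold change 0.84 ± 0.20 SE, adjusted p = 0.00754 with edgeR). Golph3, a Golgi protein that helps vesicles to bud, stood at 326 and 307 CPM in BrQ, against 188 and 196 CPM in Vehicle (0.72 ± 0.13 SE, adjusted p = 0.00234 with edgeR). Pigo, an enzyme of glycosylphosphatidylinositol anchor synthesis in the ER, stood at 169.8 and 165 CPM in BrQ, against 289 and 321 CPM in Vehicle (-0.87 ± 0.14 SE, adjusted p = 0.00105 with edgeR). Gba2, a glucosylceramidase outside the lysosome, stood at 204 and 199 CPM in BrQ, against 405 and 427 CPM in Vehicle. The 9 calls of 12 stand beside the 45.7% called over all features and 44.9% inside the stretches, and they ran in both directions. Beside the falls of Sec61b and Creb3 stand the falls of 3 of 5 B and T cell markers (Cd72, Il7r and Sit1), the rise of Tox and the lower mitochondrial share in BrQ, given above. Their part in these changes was not tested.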

How the data were processed

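Lymph node RNA of 4 EAE mice was sequenced in paired ends, 1 library per mouse, per the labels' protocols. The submitters' processing notes name HISAT2 2.1.0, HTSeq 0.11.2, Trim Galore 0.6.2 and mm10. For the strand setting and the annotation release, nothing is stated in the labels used here. What the authors deposited is a raw count per gene ID. The 5 closing rows, which name no gene, held 87.0% to 89.0% of all read rows and entered neither library sizes nor tests. Libraries of a group differed beyond counting noise (chi-square per degree of freedom 8.46 for BrQ, 16.9 for Vehicle).

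Groups and replicate numbers came from the titles. The test was edgeR 4.0.16 (quasi-likelihood, TMM, filterByExpr; R 4.3.3) fitted to the 4 libraries and all features, with group as the only term and Benjamini-Hochberg adjustment over 10223 features (threshold 0.05); CPM values are TMM scaled. SE is the log2 fold change divided by the root of F. Ratios used counts with 0.5 added and exact permutation in scipy 1.17.1. Positions, exon lengths and overlaps came from GENCODE M21 (GRCm38), promoters from RefSeq (GRCm38.p6), where all 6 genes matched. Alternatives were other scalings, filters, the legacy fit, DESeq2 1.42.0, limma voom (limma 3.58.1), the replicate number as a block and each library left out. The named genes are the 6, markers by sum, and up to 4 called ER list genes with the largest change and at least 100 reads. The members and lists were chosen with earlier results of these data known. The test was checked on simulated counts with known changes, drawn with 1 common spread for all features. Of 100 features changed 2-fold it called 44, and of 100 changed 4-fold it called 94. Of its 142 calls, 4 were false. All other features of the 9925 simulated were left unchanged, whereas 45.7% of features tested were called in the data. The check therefore does not cover how the calls depend on the scaling. Changes below 2-fold were not simulated. Figures were drawn with matplotlib 3.10.9. The p-values rest on the spread among these 4 mice alone.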

Additional observations from a re-analysis of the deposited data

Results flagged for a closer look

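Reads in no gene interval, which enter no test here, took a larger share of all read rows in both BrQ libraries than in both Vehicle libraries. The mean share was 88.7% ± 0.181 for BrQ against 87.3% ± 0.677 for Vehicle (SD, n = 2 each).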

How the results depend on the processing

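With library size alone, Sec61b and Creb3 lost the call at -0.0678 and -0.0679, Calu passed at 0.55, and Erp44 (0.0949) and Ube2j1 (0.15) turned from lower to higher without passing. With library size from all read rows, Sec61b and Creb3 were at -0.23 each and Calu passed at 0.39. Added after seeing the data, library size without mitochondrial genes gave -0.27 for Sec61b and -0.28 for Creb3, and TMM factors from features inside the stretches gave -0.34 for each, none past the threshold. No low count filter gave -0.41 for each, neither past the threshold, and 2481 features passed, against 4676. Retreg1, never called, turned to -0.0226 with RLE size factors, -0.0238 with upper quartile factors and -0.0226 with DESeq2. Leaving out each library in turn gave 2031 (without BrQ replicate 3) to 4376 calls over all features, -0.48 to -0.39 for Sec61b, -0.54 to -0.38 for Creb3, -0.49 to -0.10 for Erp44, -0.34 to -0.11 for Ube2j1, 0.12 to 0.25 for Calu and -0.0676 to 0.12 for Retreg1. The group left with 1 mouse is then assumed to vary like the other. Sec61b lost its call without BrQ replicate 1 or 3, and Creb3 without BrQ replicate 1 or 3 or Vehicle replicate 3. The cause of these changes was not tested. With the replicate number as a replicate block, 4190 features passed and Creb3 was at -0.44 (adjusted p = 0.0662, edgeR) and no longer passed. Sec61b, also at -0.44 there, passed only narrowly (adjusted p = 0.0496, edgeR). Same-numbered libraries deviated with a correlation of -0.12 over 10223 features, so the numbers are not shown to pair mice; with the pairing crossed, added after seeing the data, 5284 features passed. The 15 ratios hardly moved with 0 or 1 read added; with 2 libraries per group, leaving one out cannot move a ratio by more than the SD, so that setting says nothing about their stability. The 95% intervals given with the results show which sizes of change were not excluded under the TMM fit alone. They do not cover the choice of scaling. With library size alone, Sec61b (-0.0678) and Calu (0.55) both lay outside their own intervals.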
